A study of Mus musculus with 4 samples.

Results

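Tranylcypromine (TC) was set against vehicle in differentiating C2C12 cells. The comparison took in 3 of the 4 arrays of the series: the 1 array whose label names the LSD1 inhibitor tranylcypromine and the 2 vehicle arrays (Control_1 and Control_2). The fourth array, of cells given the other LSD1 inhibitor, S2101, entered only 1 alternative fit. C2C12 is an immortal mouse myoblast line that fuses into myotubes when serum is withdrawn, and cultures of it hold fused and unfused cells side by side. No genetic change is named in the labels of either group. All cells grew at 25 mM glucose in 10% fetal bovine serum, and were induced to differentiate in 2% horse serum at the same glucose, with the inhibitor or with vehicle. Total RNA was taken 48 h later, and 250 ng of it was labelled for each array. The labels give no dose and name no separate cultures behind the arrays. The p-values therefore measure the spread between these arrays, which may be technical.

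LSD1 (gene Kdm1a) is a flavin-dependent histone demethylase that removes methyl groups from lysine 4 of histone H3 and works in a complex with the CoREST proteins and histone deacetylases. Tranylcypromine is a small cyclopropylamine that was first used as an inhibitor of the monoamine oxidases, flavin enzymes related to LSD1, and it inactivates these enzymes by bonding to their flavin. In myoblasts, differentiation involves leaving the cell cycle, switching on muscle regulatory factors such as myogenin, and fusing into fibres, while unfused cells go on making matrix. In bulk RNA of such a mixture, fewer cells of a kind and less RNA per cell cannot be told apart.

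The deposited MAS5 signals, a linear measure of brightness per probe set, had the same trimmed mean on each array, and medians of 75.1 and 66.6 with vehicle and 63.4 with TC. The ratio of 3′ to 5′ control probe sets, a sign of RNA quality, was 0.77 to 0.79 for Gapdh and 1.22 to 1.31 for actin over the 3 arrays. Levels are given below as signals, and differences as TC minus the vehicle mean of log2(signal + 50), with the standard error (SE) of a limma fit. This scale understates the change of dim genes. With 1 TC array, the gap between the 2 vehicle arrays is the only spread measured, and the TC array is assumed to vary as they did. Tests covered the 9097 genes in the brighter part of the array, those with a mean signal no lower than that of the median gene. Their differences had a median of 0.02, with a 5th percentile of -0.41 and a 95th percentile of 0.40. The vehicle arrays differed from each other by a median of 0.09, and by 0.35 at the 95th percentile.

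At a Benjamini-Hochberg adjusted p under 0.05, 736 genes passed, which is 8.09% of those tested. TC was higher for 384 (4.22%) and lower for 352 (3.87%), and every one of the 736 lay beyond both vehicle arrays. Lying beyond both arrays was common in itself, at 78.3% of all genes tested (42.8% above and 35.5% below), and 4.51% of genes lay at least 0.5 beyond the nearer one. A difference of at least 2-fold on this scale was found for 53 genes (0.583%), of which 25 (0.275%) were higher and 28 (0.308%) lower. The count of 736 rests on a variance model that ties each gene's spread to its brightness. With 1 prior spread for all genes, that is without the intensity trend, 84 of the 736 passed. With every gene tested, dim ones included, 10 did. They were Ptgds, Chchd10, Tm7sf2, Aldh3a1, Ccn2, Cilp, Tagln, Tnc and Igf1, which are described here, and Tpd52, a vesicle trafficking protein named after its value was seen. The brightness limit used the mean of all 3 arrays, so some genes were tested only because 1 group was bright. The vehicle mean was under the limit for 68 tested genes, of which 11 were called higher and 0 lower, and the TC signal was under it for 172, of which 32 were called lower and 0 higher. Such genes had to differ to be tested, so their calls support nothing and their values are given as a description. Among the genes named here they are Atp6v0e2, Cox7a1, Fam107a, Mgst2, Plekhb1, Syngr1 and Xdh, bright enough only through TC, and Arsj, Aspn, Brca1, Cdc6, Dkk2, Dmp1, Fgf7, Ncapg, Omd, Rad51ap1, Rps27, Spc24 and Ttk, bright enough only through vehicle.

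**Figure D1:**
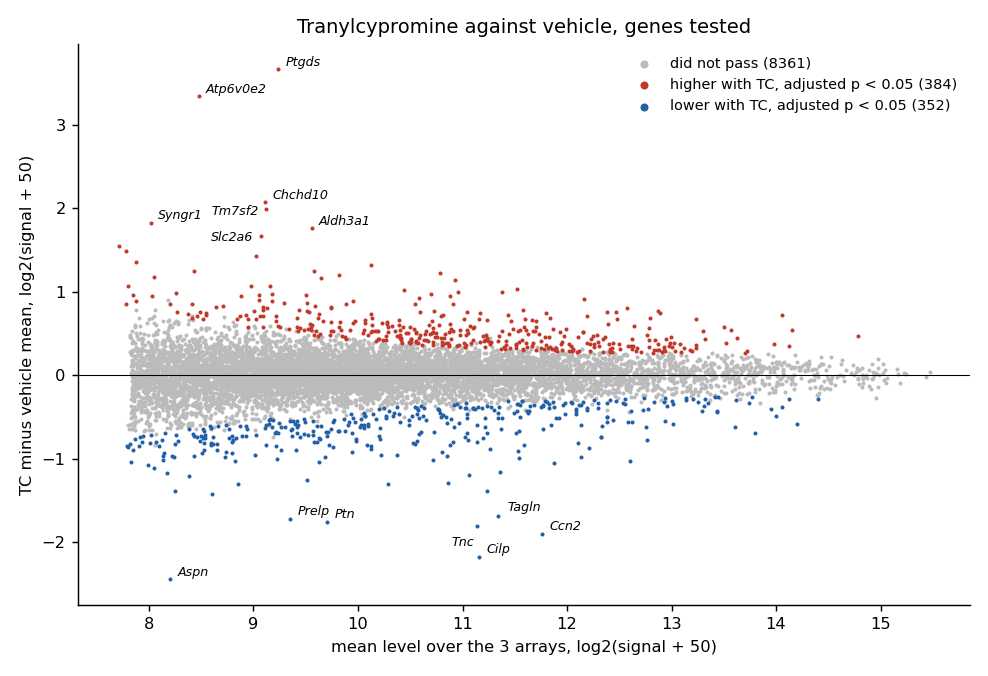
Difference between TC and the vehicle mean (vertical axis, log2(signal + 50)) against the mean level over the 3 arrays (horizontal axis, same scale) for the 9097 genes tested, with 384 higher genes in red, 352 lower genes in blue and genes that did not pass in grey. The labelled genes are the highest and lowest of those named in the text. The labelled increases had mean signals of 265 to 1217, and Cilp, Ccn2, Tnc and Tagln, among the largest decreases, 2560 to 4018.

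The labelled cell type was checked against muscle markers. Myog, the regulatory factor that marks committed myocytes, had signals of 12999 and 12821 with vehicle and 13386 with TC. Mymk, a membrane protein needed for fusion, stood at 2297 and 1915 with vehicle and 2493 with TC, and Acta1, skeletal muscle actin, at 27073 and 25836 with vehicle and 28911 with TC. Myod1, Des, Ckm, Myh3, Tnnt3 and Chrna1 were also bright on all 3 arrays. None of the 9 markers passed the test between TC and vehicle, with differences from -0.11 (Myh3, embryonic myosin) to 0.27 (Des, the muscle intermediate filament protein desmin).

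RNA of the enzymes that the compound binds did not pass the test. Kdm1a had signals of 5537 and 5202 with vehicle and 4990.2 with TC, a difference of -0.10 ± 0.08 (SE) with a 95% interval of -0.27 to 0.07 and an adjusted p of 0.456. Maoa, monoamine oxidase A, had 2019.6 and 1991 with vehicle and 2336 with TC, with a difference of 0.22 ± 0.08 and no call (adjusted p = 0.163), and another bright probe set of this gene gave -0.07. Maob was too dim to test, with signals of 13 and 0.675 with vehicle and 16.3 with TC. Of 13 tested genes of LSD1 and its CoREST partners, 0 passed in limma (1 had an unadjusted p under 0.05), with a median of -0.04. The largest 2 differences were those of Rcor3, a CoREST scaffold, at -0.26 ± 0.15, and Zeb1, a repressor that recruits the complex, at 0.26 ± 0.08, and Zeb1 had another probe set at -0.21. Among 5 tested copper and flavin amine oxidases, 2 fell (40%, beside 3.87% of all genes), and both cross-link collagen and elastin. Loxl3 went from 1614 and 1661 to 1262 and Loxl1 from 5488 and 5278 to 4270.2.

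The largest increase was that of Ptgds, lipocalin-type prostaglandin D synthase, which also carries small lipids. Its signal was 239.7 and 181 with vehicle and 3229.9 with TC, a rise of 3.66 ± 0.16 (SE, adjusted p = 9.89e-06), and its other bright probe set differed by 2.58. Atp6v0e2, a membrane subunit of the proton pump that acidifies lysosomes, had 92.5 and 140.1 with vehicle and 1618 with TC, a difference of 3.34 ± 0.20 (SE), and was tested only through the TC signal. The vehicle arrays stood 0.33 apart for Ptgds and 0.42 apart for Atp6v0e2. TC lay beyond both of them, which the rule for naming these genes required and which held for 78.3% of all genes tested. Chchd10, a small protein of the mitochondrial intermembrane space, rose from 301 and 285 to 1391, by 2.07 ± 0.14 (SE, adjusted p = 0.000139). Tm7sf2, a sterol reductase of cholesterol synthesis, had nearly equal vehicle signals of 302 and 302 and 1346 with TC, a rise of 1.99 ± 0.14 (SE, adjusted p = 0.000151). Aldh3a1, an aldehyde dehydrogenase, rose from 443 and 461 to 1649, by 1.76 ± 0.12 (SE, adjusted p = 0.000152).

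The other 10 of the 15 largest increases ranged from 1.23 ± 0.10 to 1.82 ± 0.18. Syngr1, a synaptic vesicle membrane protein, had signals of 123 and 117 with vehicle and 553 with TC, and it was among 4 of these 10, with Xdh, Fam107a and Plekhb1, that were tested only through TC. Slc2a6, a sugar transporter of the GLUT family, rose from 328 and 303 to 1112. Xdh, the xanthine dehydrogenase that ends purine breakdown, had 72.5 and 126 with vehicle and 378 with TC. The vehicle arrays stood 0.52 apart for Xdh, the widest gap among the 15 genes. Abca1, which exports cholesterol from cells, rose from 348 and 303 to 962, and Abca3, a lipid transporter, from 219.9 and 199 to 567. With the mean of all probe sets in place of the brightest, Abca1 and Abca3 had adjusted p of 0.0510 and 0.0681 and no longer passed. Gsta4, a glutathione transferase that clears lipid aldehydes, rose from 1335 and 1227 to 3068. Nptx1, a neuronal pentraxin, and Slc9a3r1, the scaffold NHERF1, rose by 1.32 ± 0.12 and 1.25 ± 0.13. Fam107a, an actin-bundling protein, and Plekhb1, a membrane protein with a PH domain, differed by 1.49 ± 0.20 and 1.35 ± 0.20.

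**Figure D2:**
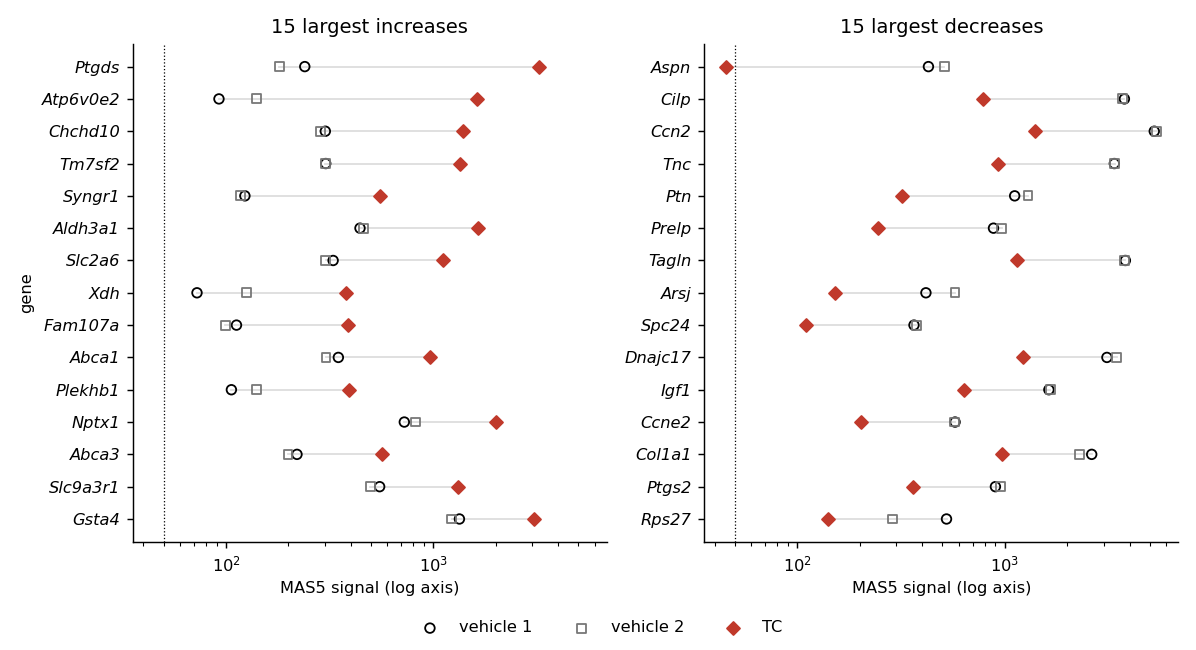
MAS5 signal (log axis) of the 15 genes with the largest increase (left) and the 15 with the largest decrease (right) on vehicle array 1 (circle), vehicle array 2 (square) and the TC array (red diamond), with the offset of 50 as a dotted line. The vehicle arrays lie close together for most genes and furthest apart for Rps27, and the Aspn signal with TC, 45.1, is the only one left of the dotted line.

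Decreases were led by genes of the extracellular matrix. Aspn, asporin, a small collagen-binding proteoglycan, had 428 and 512 with vehicle and 45.1 with TC. The TC signal lay below the offset of 50, so that its difference of -2.45 ± 0.19 (SE) has no firm lower end. Its other bright probe set gave -1.43. Cilp, a cartilage protein that binds TGF-β, fell from 3772 and 3704 to 787, a difference of -2.18 ± 0.08 (SE, adjusted p = 6.27e-06). Ccn2, connective tissue growth factor, fell from 5254 and 5410.1 to 1391, a difference of -1.90 ± 0.08 (SE, adjusted p = 6.27e-06), and Tnc, the matrix protein tenascin C, from 3373 and 3379.8 to 927, a difference of -1.81 ± 0.08 (SE, adjusted p = 1.02e-05). For Cilp, Ccn2 and Tnc the vehicle arrays differed by at most 0.04, so the gap to TC was many times the gap between controls.

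The other 11 of the 15 largest decreases lay between -1.76 ± 0.13 and -1.20 ± 0.28. Ptn, the heparin-binding growth factor pleiotrophin, fell from 1116 and 1293 to 319.9, and Prelp, another leucine-rich matrix protein, from 882 and 965 to 244. Tagln, the actin-binding protein transgelin of smooth muscle, fell from 3812 and 3766 to 1139. Col1a1, the main chain of type I collagen, fell from 2624 and 2287 to 971. Igf1, a growth factor that myoblasts make and respond to, fell from 1631 and 1659 to 635, and its 3 other bright probe sets were also lower, with differences from -1.52 to -0.90. Ptgs2, the inducible cyclooxygenase, fell from 901 and 951 to 360.2. Ccne2, cyclin E2, fell by 1.30 ± 0.15. Spc24, a kinetochore subunit, and Arsj, a sulfatase, differed by -1.39 ± 0.17 and -1.42 ± 0.20. Aspn, Spc24, Arsj and Rps27 were the 4 of these 15 genes tested only through vehicle. Dnajc17 had a difference of -1.38 ± 0.09, but -0.38 with an adjusted p of 0.147 in the mean of its probe sets. Rps27, a ribosomal protein, had 523 and 287 with vehicle and 141 with TC, and its vehicle arrays differed by 0.77, the widest gap among these 30 genes.

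Genes of cell division were lower with TC. In the list of mitosis and kinetochore genes, 31 of 40 tested members fell and 0 rose, against 3.87% of all genes falling, and the list's median difference was -0.68 against 0.02 for all genes. All 40 members lay below both vehicle arrays, which 35.5% of all genes did, and 9 of the 40 did not pass. Of the 40, 5 were tested only through vehicle, 3 of them among the 31: Spc24, Ttk and Ncapg. Spc24 had 365 and 377 with vehicle and 110.3 with TC, and its partner in the kinetochore's microtubule-binding complex, Spc25, 862 and 1123 with vehicle and 473 with TC. Ttk, the kinase that starts the spindle checkpoint, had 365 and 295 with vehicle and 142 with TC, and Ncapg, a condensin subunit, 397 and 365 with vehicle and 170.4 with TC. The differences were -1.39 ± 0.17, -0.98 ± 0.16, -0.98 ± 0.19 and -0.97 ± 0.17 in that order. With the mean of all probe sets, Spc25 and Ttk had adjusted p of 0.0678 and 0.126, and 23 of the 40 genes fell. With 1 prior spread for all genes, 7 of 40 fell, among them Spc24 and Ncapg, which had to differ to be tested.

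Of 30 tested DNA replication genes, 13 fell (43.3%) and 0 rose, against 3.87% of all genes falling, with a median of -0.44. Mcm4 and Mcm5, subunits of the replicative helicase, fell from 1764 and 2439 to 1002 and from 1137 and 1189 to 592. Uhrf1, which carries DNA methylation through replication, fell from 687 and 726 to 326, a difference of -1.01 ± 0.13 (SE, adjusted p = 0.00312). Cdc6, which loads the helicase, differed by -0.89 ± 0.23, was tested only through vehicle, and lost its call under quantile normalization (adjusted p = 0.102). With 1 prior spread for all genes, 2 of the 30 passed.

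The promoters of these genes are shown because the families are known to differ in the elements that restrain them outside the cell cycle. RefSeq promoters were given for 27 of the 31 mitosis genes that fell and 11 of the 13 replication genes. They were searched on both strands, from 250 bases before the start site to 50 after it, for the cell cycle homology region (TTTGAA) and for the E2F site (TTTGGCGC or TTTCCCGC). The 250 bases before the start site of Ncapg (chr5:45669675-45669924, plus strand), Mki67 (chr7:135716380-135716629, minus strand; the proliferation antigen Ki-67) and Mcm5 (chr8:75109259-75109508, plus strand) on GRCm38.p6 read as follows, with the motif matches in capitals.
Ncapg: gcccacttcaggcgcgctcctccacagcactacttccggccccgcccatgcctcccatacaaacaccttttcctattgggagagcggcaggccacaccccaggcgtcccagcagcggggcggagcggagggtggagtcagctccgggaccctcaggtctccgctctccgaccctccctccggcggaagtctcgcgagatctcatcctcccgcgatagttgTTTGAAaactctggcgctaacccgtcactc
Mki67: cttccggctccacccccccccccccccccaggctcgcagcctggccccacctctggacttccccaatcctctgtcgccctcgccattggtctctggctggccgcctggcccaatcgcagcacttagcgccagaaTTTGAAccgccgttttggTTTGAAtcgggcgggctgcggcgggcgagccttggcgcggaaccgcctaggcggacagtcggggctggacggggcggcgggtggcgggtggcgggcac
Mcm5: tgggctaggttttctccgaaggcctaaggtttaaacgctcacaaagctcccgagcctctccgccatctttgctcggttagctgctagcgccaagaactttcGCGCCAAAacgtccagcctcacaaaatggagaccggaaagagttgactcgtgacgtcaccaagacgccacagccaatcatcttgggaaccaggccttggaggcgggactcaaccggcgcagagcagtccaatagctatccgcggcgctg
In Ncapg the match to the homology region begins 30 bases before the start site, in Mki67 the 2 matches begin 116 and 98 bases before it, and in Mcm5 the E2F match, on the other strand, begins 149 bases before it. The homology region letters were found in 19 of 27 promoters of mitosis genes that fell (70.4%), in 7 of 8 of those that did not pass (87.5%), in 0 of 11 replication genes that fell, in 4 of 15 of those that did not pass (26.7%) and in 20.2% of all genes with a promoter. E2F letters were found in 5 of 11 replication genes that fell (45.5%), 5 of 15 that did not pass (33.3%), 1 of 27 mitosis genes that fell (3.7%) and 1.8% of all genes. No match printed here overlapped another. The shares differed more between the families than between members that passed and members that did not. Mki67 itself, chosen for display after its value was seen, had signals of 1628 and 1575 with vehicle and 798 with TC and a difference of -0.96 ± 0.10.

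Regulators of the cycle were more mixed, beside 8.09% of all genes called. The shares called were 22.2% for cyclins and G1-S genes, 11.1% for CDK inhibitors and p53 targets and 6.67% for nucleotide synthesis. The 40% called in homologous recombination came wholly from genes tested only through vehicle, so that share supports nothing. Of 18 cyclins and G1-S genes, 3 fell and 1 rose. Ccne2 fell from 576 and 573 to 203, E2f7, a repressor of E2F targets, from 447 and 506 to 267, and Myc, the growth-driving transcription factor, from 653 and 630.0 to 378. E2f2, an activator, rose from 849 and 764 to 1269, although another probe set gave 0.03. Among 18 CDK inhibitors and p53 targets, 2 rose and 0 fell, with a median of 0.01: Gadd45a, a growth arrest gene, from 6138 and 6154 to 9140.1, and Trp53inp1 from 1764 and 1999 to 2794, the latter at 0.21 with an adjusted p of 0.420 in the mean of its probe sets. Of 5 tested genes of homologous recombination, 2 were called lower, Rad51ap1 (-1.17 ± 0.18) and Brca1 (-0.72 ± 0.17), both tested only through vehicle. In the mean of its probe sets Brca1 was at -0.24 with an adjusted p of 0.482, and it lost its call under quantile normalization too (adjusted p = 0.0708). In nucleotide synthesis, 1 of 30 fell, the S-phase kinase Tk1 (-0.80 ± 0.15), and Xdh, tested only through TC, was the 1 called higher.

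Collagens were lower with TC in most of the tested genes: 12 of 17 fell (70.6%) and 0 rose, against 3.87% of all genes falling, with a median of -0.76. Besides Col1a1, Col8a1, a short-chain collagen, fell from 5719 and 5444 to 2815, Col4a1, of basement membranes, from 2139.9 and 2169 to 1117, and Col6a1, of the muscle fibre surround, from 3488 and 3702 to 1887. These 4 genes also passed with 1 prior spread for all genes, where 4 of the 17 did. In the small leucine-rich proteoglycans, which organise collagen fibrils, 6 of 7 were called lower beside the same 3.87%, with a median of -0.58, and 2 of the 6, Aspn and Omd, were tested only through vehicle. Ogn, osteoglycin, fell from 20262 and 22903 to 14380.1, and Omd had 224 and 219.6 with vehicle and 100.4 with TC. Without the intensity trend, 3 of these 7 passed: Prelp, and Aspn and Omd, which had to differ to be tested.

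Matricellular and other matrix glycoproteins had 16 of 25 members lower and 1 higher, against 3.87% and 4.22% of all genes, with a median of -0.50. The fourth largest fall after Cilp, Ccn2 and Tnc was that of Ccn1, a heparin-binding relative of Ccn2, from 4576 and 4900.1 to 2251. The 1 member that rose was Ltbp2, a protein of elastic microfibrils, by 0.49 ± 0.09; it was named for being the exception. Without the trend 5 of the 25 passed. The list of matrix proteases and their inhibitors also holds P4ha2, which is neither. In this list 7 of 20, P4ha2 among them, fell (35%) and 0 rose, beside the same 3.87% and 4.22%. The largest falls were those of Adam12, a metalloprotease of fusing myoblasts, by 0.90 ± 0.14, Plat, tissue plasminogen activator, by 0.66 ± 0.09, Timp3, a metalloprotease inhibitor, by 0.50 ± 0.08, and P4ha2, a collagen prolyl hydroxylase, by 0.49 ± 0.11. None of the 20 passed without the trend.

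Actin-related and mechanically driven genes fell in part. Of 13 smooth muscle and myofibroblast markers, 4 fell (30.8%) and 0 rose, beside 3.87% of all genes falling, and the list's median was -0.07. Tagln led, Actg2, enteric smooth muscle actin, fell from 1480.1 and 1403 to 716, Fhl2 fell by 0.57 ± 0.09 and Palld, palladin, by 0.52 ± 0.09. Of 17 YAP and TEAD targets, 4 fell (23.5%, beside the same 3.87%). They were Ccn2 and Ccn1, Birc5, survivin, which is also a mitosis gene, by 0.88 ± 0.10, and Cavin2, a coat protein of caveolae, by 0.50 ± 0.07. The other 13 had no call in either direction.

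Secreted signals shifted in both directions, beside 8.09% of all genes called. The shares called were 38.5% of the insulin-like growth factor axis, 22.7% of the other growth factors and receptors and 21.7% of TGF-β and BMP signalling. In the insulin-like growth factor axis, 3 of 13 fell and 2 rose: Igf1 fell, and Igfbp4, a binding protein that restrains it, rose from 1519.7 and 1539 to 3104 (0.998 ± 0.09, SE, adjusted p = 0.000410), with 4 other probe sets higher as well. Igfbp5, abundant in differentiating myoblasts, rose by 0.35 ± 0.08, and Igfbp7 fell by 0.29 ± 0.07. Of 22 other growth factors and receptors, 5 fell and 0 rose. After Ptn came Fgf7, an epithelial mitogen tested only through vehicle, with 319 and 283 with vehicle and 133 with TC. Hbegf, a ligand of the EGF receptor, fell from 1051 and 906 to 525, and Vegfc, the lymphatic growth factor, by 0.75 ± 0.13, whose 2 other probe sets gave 0.02 and -0.18. In TGF-β and BMP signalling, 3 of 23 fell and 2 rose. Fstl1, a secreted follistatin-like protein, fell from 16404 and 16907 to 10248, and the activin subunit Inhba fell by 0.67 ± 0.14. Its relative Inhbb rose by 0.68 ± 0.07 (another probe set at 0.05), and the BMP antagonist Grem1 by 0.68 ± 0.10.

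The remaining signalling lists had 1 to 4 calls each, or 0, beside 8.09% of all genes called. The shares called were 23.1% for Notch, 20% for Wnt, 20% for immediate early genes, 22.2% for cytokines and 33.3% for prostaglandin synthesis. In the Notch list 2 of 13 rose (Dtx4 and Hes6) and 1 fell, the ligand Jag1, by 0.64 ± 0.17. In the Wnt list 2 of 15 were called lower: Dkk2, tested only through vehicle, and Ccn4, a Wnt-induced relative of Ccn2 that went from 5826 and 6229.5 to 3588, and the receptor Fzd7 rose by 0.37 ± 0.09. Of 20 immediate early genes, 2 fell and 2 rose, and the largest change was that of Egr2, from 960.3 and 949 to 438 (-1.04 ± 0.12, SE, adjusted p = 0.00159). Ier5 fell by 0.41 ± 0.09, and Ier3 and Klf4 rose by 0.46 ± 0.09 and 0.29 ± 0.07. Of 18 cytokine and chemokine genes, Ccl8 and Il33 rose by 0.68 ± 0.15 and 0.58 ± 0.10, and Csf1 and Lifr fell by 0.40 ± 0.09 and 0.32 ± 0.08. In prostaglandin synthesis, Ptgds and Ptgis, prostacyclin synthase (0.56 ± 0.09), rose and Ptgs2 fell, among 9 tested. Of 9 interferon-stimulated genes 0 passed in limma, and 2 had an unadjusted p under 0.05.

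**Figure D3:**
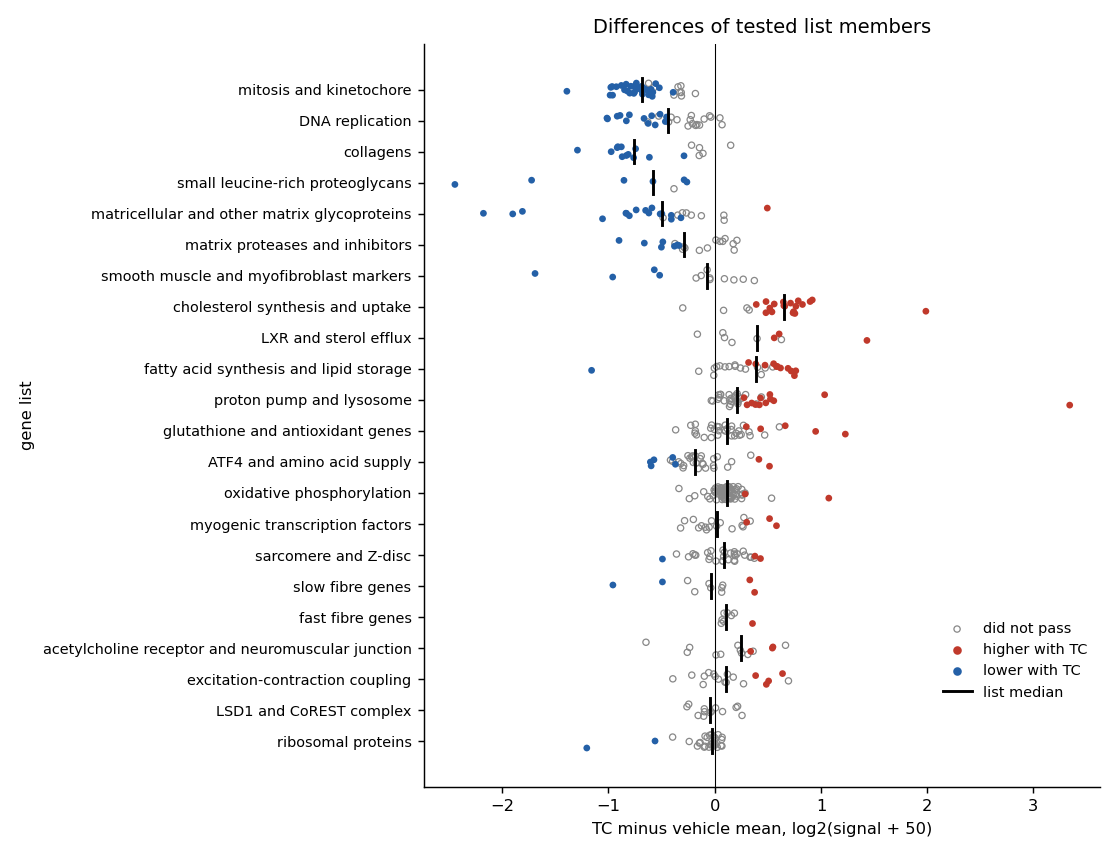
Difference between TC and the vehicle mean (log2(signal + 50)) for the tested members of 22 gene lists, each point 1 gene, red where higher and blue where lower at an adjusted p under 0.05, open where the gene did not pass, with a black bar at the list's median. The medians of the mitosis, DNA replication, collagen and proteoglycan lists lie left of 0, that of cholesterol synthesis lies right of it, and those of the LSD1 complex, ribosomal and sarcomere genes lie near it.

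Cholesterol synthesis was higher along nearly the whole pathway. The enzymes, which build cholesterol from acetyl-CoA by way of mevalonate and squalene, are switched on together by the transcription factor SREBP-2 when membranes hold little sterol. Of 23 tested members of the list, 19 rose and 0 fell, against 4.22% of all genes rising, and the median was 0.65. Hmgcs1, HMG-CoA synthase at the top of the pathway, rose by 0.54 ± 0.07. Idi1, isopentenyl diphosphate isomerase, had 3468 and 3873 with vehicle and 6969.9 with TC, a rise of 0.92 ± 0.09 (SE, adjusted p = 0.000579). Mvd and Pmvk, both of the mevalonate branch, rose from 369 and 398 to 757 and from 623 and 547 to 1074. Tm7sf2 stood out with the rise of 1.99 ± 0.14 given above. Sqle, squalene epoxidase, rose by 0.48 ± 0.08. Srebf2 is the gene of SREBP-2, Scap is its escort protein, and Insig1 holds both in the endoplasmic reticulum. Srebf2, Scap and Insig1 rose by 0.39 ± 0.10, 0.52 ± 0.11 and 0.65 ± 0.08. Dhcr7, the last enzyme of the pathway, was the 1 member below both vehicle arrays, at -0.30 ± 0.16, and did not pass. With the mean of all probe sets, 11 of the 23 rose and the median was 0.35. With 1 prior spread for all genes, 2 rose, Tm7sf2 and Mvd.

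**Figure D4:**
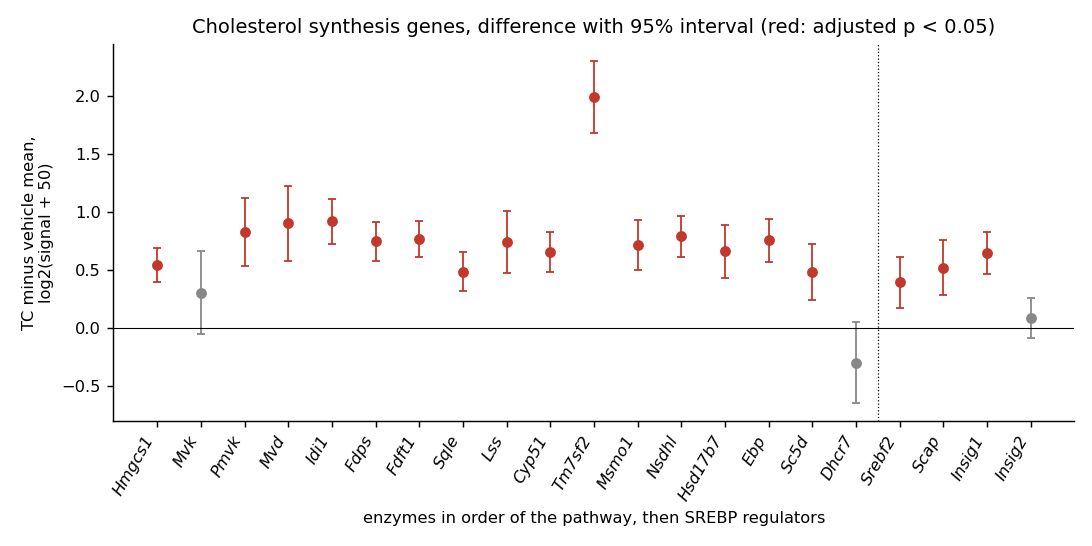
Difference between TC and the vehicle mean (log2(signal + 50), points) with the 95% interval of the limma fit (bars) for 17 enzymes of cholesterol synthesis in pathway order and 4 regulators of SREBP to the right of the dotted line. Red genes passed at an adjusted p under 0.05, and Mvk, Dhcr7 and Insig2, in grey, did not.

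SREBP binds the sterol regulatory element, and the 250 bases before the start site of Hmgcs1 (chr13:119690101-119690350, plus strand, RefSeq, GRCm38.p6) are shown with a match to TCACNCCAC, searched on both strands, in capitals. The match begins 137 bases before the start site.
Hmgcs1: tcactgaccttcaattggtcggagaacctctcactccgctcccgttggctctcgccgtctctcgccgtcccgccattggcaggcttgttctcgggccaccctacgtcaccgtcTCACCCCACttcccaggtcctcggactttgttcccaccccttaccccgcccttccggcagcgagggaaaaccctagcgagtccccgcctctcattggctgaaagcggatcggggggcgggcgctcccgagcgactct
This strict form of the element was found in 1 of 16 rising cholesterol genes with a promoter (6.25%) and in 1.44% of all genes with a promoter.

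Neighbouring lipid pathways moved with fewer calls. Of 27 fatty acid synthesis and lipid storage genes, 11 rose and 1 fell, beside 4.22% and 3.87% of all genes, with a median of 0.39. Fasn, fatty acid synthase, rose from 1897 and 1859 to 3192, Scd1, the desaturase that makes oleate, from 14786 and 14020.0 to 23737, and Acsl3, which activates fatty acids, from 4284 and 5147 to 8003. The 1 gene that fell, G0s2, an inhibitor of triglyceride breakdown, went from 3524 and 3232 to 1484 (-1.16 ± 0.09, SE, adjusted p = 0.000205), and without the trend it was the only one of the 27 to pass. Of 9 tested targets of the sterol sensor LXR, 3 rose (33.3%, beside 4.22% of all genes) and 0 fell, with a median of 0.40. They were Abca1, Lpcat3, which remodels phospholipids (0.61 ± 0.10), and Mylip, which degrades the LDL receptor (0.56 ± 0.09). In fatty acid uptake and oxidation, 3 of 27 rose and 2 fell, a share of 18.5% called beside 8.09% of all genes. Pdk4, a kinase that inhibits pyruvate dehydrogenase, rose from 345 and 407 to 776. Fabp3, the muscle fatty acid carrier, had 711 and 738 with vehicle and 1351 with TC, although the mean of its probe sets differed by 0.17 with an adjusted p of 0.550. Fabp5 and Hadhb fell by 0.39 ± 0.08 and 0.36 ± 0.09, and another probe set of Hadhb gave 0.20.

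Few mitochondrial genes passed the test. Of 75 oxidative phosphorylation genes, 2 were called higher and 0 lower, which at 2.67% is under the 8.09% of all genes called. Their median was 0.11, beside 0.02 for all genes, and 62 lay above both vehicle arrays, which 42.8% of all genes did. Uqcrc1, of complex III, rose by 0.29 ± 0.07, with no call under quantile normalization (adjusted p = 0.0802). The other called gene was tested only through TC: Cox7a1, the muscle form of a cytochrome oxidase subunit, with 124 and 124 with vehicle and 316 with TC and a difference of 1.07 ± 0.19. Without the intensity trend 1 of the 75 passed, Cox7a1, which had to differ to be tested. Of 19 citric acid cycle genes only Pdha1, of pyruvate dehydrogenase, passed (0.32 ± 0.07). In this list 15 lay above both vehicle arrays, beside the same 42.8%. In mitochondrial biogenesis and cristae, Chchd10 was the 1 gene of 17 to pass (5.88%). Of 25 glycolysis and glycogen genes, 12% were called: Slc2a6 rose, and the glucose transporter Slc2a1 and Pgam1 fell by 0.36 ± 0.08 and 0.32 ± 0.07.

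Of 38 tested genes of the proton pump and the lysosome, 12 were called higher and 0 lower, a share of 31.6% against 4.22% of all genes called higher. One of the 12, Atp6v0e2, was tested only through TC. The median was 0.21, and 33 members lay above both vehicle arrays, which 42.8% of all genes did. Atp6v0b, another membrane subunit of the pump, had 2011 and 2537 with vehicle and 4681 with TC, a rise of 1.03 ± 0.12 (SE, adjusted p = 0.00189), with its 2 other probe sets at 0.28 each. Ctsb, cathepsin B, rose from 8963 and 8785 to 12784. Ctsa, a lysosomal carboxypeptidase, rose from 3217 and 3266 to 4788, but by 0.19 with an adjusted p of 0.394 in the mean of its probe sets. Only Atp6v0e2, which had to differ to be tested, passed without the trend. Of 18 muscle atrophy and autophagy genes, 3 rose (16.7%, beside the same 4.22%). They were Foxo3 by 0.51 ± 0.13 (another probe set at -0.02), Gabarapl1 by 0.40 ± 0.09 and Sqstm1 by 0.38 ± 0.07, the last at 0.02 in the mean of its probe sets.

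Some detoxifying genes passed the test. The shares called were 40% of the aldehyde dehydrogenases and 15.4% of the metallothionein and zinc genes, beside 8.09% of all genes. The 28.6% called among aryl hydrocarbon receptor targets rests in part on Xdh, which had to differ to be tested. Of 37 glutathione and antioxidant genes, 5 were called higher (13.5%) and 0 lower, against 4.22% of all genes called higher, with a median of 0.12. Without the intensity trend 1 of the 37 passed. After Gsta4 came the microsomal glutathione transferase Mgst2, with 132 and 192 with vehicle and 355 with TC, which was tested only through TC. Its relative Mgst1 rose from 2629.9 and 2861 to 4374, but by 0.25 with an adjusted p of 0.315 in the mean of its probe sets. Nfe2l2, the regulator NRF2, rose by 0.43 ± 0.07, but by 0.11 with an adjusted p of 0.721 in the mean of its probe sets. Among 10 aldehyde dehydrogenases, Aldh3a1 and the mitochondrial Aldh2 (0.35 ± 0.07) rose, and Aldh1l2 and Aldh18a1, of folate and proline metabolism, fell by 0.63 ± 0.14 and 0.57 ± 0.09. Of 7 aryl hydrocarbon receptor targets, 2 were called higher, Aldh3a1 and Xdh, the latter tested only through TC. Of 13 metallothionein and zinc genes, 2 rose: Mt1 from 10294 and 9877 to 15123 and Mt2 from 6816 and 7782 to 10001. Metallothioneins bind zinc and copper, and metals switch them on through metal response elements. The 250 bases before the start site of Mt1 (chr8:94178839-94179088, plus strand, RefSeq, GRCm38.p6) have in capitals a match to that element (TGCACNC or TGCGCNC, searched on both strands), 23 bases before the start site.
Mt1: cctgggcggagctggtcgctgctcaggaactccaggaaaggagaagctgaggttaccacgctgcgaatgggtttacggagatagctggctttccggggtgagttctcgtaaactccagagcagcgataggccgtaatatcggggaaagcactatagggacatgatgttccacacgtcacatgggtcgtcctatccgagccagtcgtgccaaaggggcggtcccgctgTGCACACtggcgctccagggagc
These short letters were found in the promoters of both Mt1 and Mt2, in 4 of 9 genes of the list that did not pass (44.4%) and in 28.2% of all genes with a promoter.

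Calls in the stress pathways were mixed in direction, beside 8.09% of all genes called. The shares called were 21.2% for ATF4, 20.8% for the unfolded protein response, 28.6% for hypoxia, 33.3% for glucocorticoid-responsive genes and 6.67% for ribosomal proteins. In ATF4 targets and amino acid supply, 5 of 33 fell and 2 rose, with a median of -0.18. Of the 33, 23 lay below both vehicle arrays and 5 above, beside 35.5% and 42.8% of all genes. Mthfd2, of mitochondrial folate metabolism, fell from 1231 and 1186 to 777, and Phgdh, which opens serine synthesis, from 4574 and 3795 to 2735, while Ddit4, a brake on mTOR, rose by 0.52 ± 0.11. Of 24 genes of the unfolded protein response, 4 fell and 1 rose, while 16 lay below both vehicle arrays and 5 above, beside the same shares. The chaperones Sdf2l1 and Hsp90b1 and the secreted factor Manf fell by 0.54 ± 0.12, 0.38 ± 0.07 and 0.32 ± 0.07, and the sensor Atf6 rose by 0.35 ± 0.09. Of 14 hypoxia targets, 3 fell and 1 rose. Of 13 heat shock genes and 10 clock genes 0 passed in limma, with 4 and 1 at an unadjusted p under 0.05, and Hspa1a, an inducible HSP70, had the largest difference there, 0.53 ± 0.15. Of 18 glucocorticoid-responsive genes, 4 rose and 2 fell. Hsd11b1, which regenerates cortisol, and Fkbp5, a chaperone of the glucocorticoid receptor, fell by 0.75 ± 0.14 and 0.69 ± 0.13, while Pdk4 and Mt1 rose. Of 30 ribosomal protein genes, Rpl37 fell (-0.56 ± 0.07), and Rps27, tested only through vehicle, was also called lower.

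Muscle genes were called in both directions, beside 8.09% of all genes called. The shares were 15.8% of the myogenic transcription factors, 9.68% of the sarcomere and Z-disc genes, 12.5% of the fast fibre genes and 36.4% of the slow ones. Without the intensity trend 1 gene of these 4 lists, Myh7, passed. Of 19 myogenic transcription factors, 3 rose and 0 fell, with a median of 0.02: Eya1, a transcription cofactor of early muscle, from 510.0 and 591 to 846, Id2, an inhibitor of bHLH factors, from 1498 and 1735 to 2328, and Mef2a by 0.30 ± 0.08, whose other probe sets ranged from -0.31 to 0.13. Of 31 sarcomere and Z-disc genes, 2 rose and 1 fell. Myom2, of the M-band, rose from 9468 and 9017 to 12472, and Csrp3, a Z-disc stretch sensor, fell from 1257 and 1408 to 931. The largest fall in the muscle lists was that of Myh7, the slow myosin heavy chain, from 561 and 628 to 281 (-0.96 ± 0.15, SE, adjusted p = 0.00636). The slow set of 11 was split, with Tnnt1, slow troponin T, and Atp2a2, the slow calcium pump, higher by 0.33 ± 0.07 and 0.38 ± 0.07. Of 8 fast fibre genes, Actn3, of fast Z-discs, rose by 0.35 ± 0.07. Of the 8, 6 lay above both vehicle arrays, beside 42.8% of all genes. Of 3 developmental myosin and troponin genes 0 passed in limma, and 1 had an unadjusted p under 0.05.

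Some genes of the fibre's membrane systems passed the test. Of 14 acetylcholine receptor and neuromuscular junction genes, 3 rose (21.4%) and 0 fell, against 4.22% of all genes rising, with a median of 0.25. Chrng, the embryonic receptor subunit, rose from 1375 and 1145 to 1858, Chrnb1 from 2675 and 2734 to 3962, and Erbb3, a neuregulin receptor, by 0.34 ± 0.08. Under quantile normalization 1 of the 14 rose, and Chrng and Erbb3 had adjusted p of 0.0541 and 0.0790. In the mean of their probe sets these 2 genes had adjusted p of 0.210 and 0.512. Of 18 excitation-contraction coupling genes, 4 rose (22.2%) and 0 fell: Ryr1, the calcium release channel, from 754 and 625 to 1096, and Hrc, Cacng1 and Jsrp1, of calcium storage and the voltage sensor, by 0.51 ± 0.11, 0.49 ± 0.09 and 0.39 ± 0.09. Without the intensity trend 0 of the 14 and 0 of the 18 passed in limma. In the dystrophin complex, Cav3, muscle caveolin, was the 1 gene of 12 to pass (8.33%, beside 8.09% of all genes) and fell from 405 and 403 to 193. Of 19 fusion and adhesion genes, 4 fell and 2 rose, a share of 31.6% called. Cav1 had 6831 and 10075 with vehicle and 4818 with TC, with the vehicle arrays 0.56 apart, Vcam1, an adhesion receptor, fell by 0.38 ± 0.08, and Itga7, the laminin receptor of muscle, rose by 0.35 ± 0.07.

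Markers of other cell types came in 6 lists, and their part in the results above was not tested. Of 31 of these genes bright enough to test, 9 were called higher and 0 lower, beside 4.22% of all genes called higher. The 9 include Syngr1 and Fam107a, tested only through TC, Scd1, a lipid enzyme, and Tcf4, which is no fibroblast marker. The pooled count is therefore no result about other cell types. Of 36 neuronal and synaptic genes on the array, 13 had signals under 50 on all 3 arrays and 13 were bright enough to test, of which 4 (30.8%) were called higher and 0 lower. Of these 4, Syngr1 and Fam107a were tested only through TC, and Syt11 and Map2 were not. The list's median was -0.11, and its summed signal was 19277 and 20350.0 with vehicle and 19785 with TC. Of 13 adipocyte markers, 6 were under 50 on every array and 3 of 5 tested rose (60%): Scd1, Cebpb and Car3, carbonic anhydrase 3, by 0.72 ± 0.10. In the mean of its probe sets Car3 was at 0.27 with an adjusted p of 0.316. The summed signal was 21441 and 20676 with vehicle and 32825 with TC. Most of that sum was Scd1, which is also in the fatty acid list, and without it the sums were 6655, 6656 and 9087. Of 15 genes in the fibroblast and progenitor list, 2 were under 50 and 2 of 9 tested rose (22.2%), Tcf4 and Pdpn. The gene Tcf4 encodes E2-2, while the fibroblast marker known as TCF4 is the product of Tcf7l2. The Tcf4 call therefore does not bear on fibroblasts. The summed signal, Tcf4 included, was 91565 and 85662 with vehicle and 92130.1 with TC. The fibroblast sum with TC lay just above both vehicle sums. Neither of 2 bone and cartilage genes passed, nor did the 1 leukocyte gene (Cd14) or the 1 endothelial gene (Eng) bright enough to test. The summed signals were 1377 and 1227 with vehicle and 1112 with TC for bone, 993 and 982 with vehicle and 822 with TC for leukocytes and 710.1 and 545 with vehicle and 519 with TC for endothelium.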

How the data were processed

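RNA of differentiating C2C12 cells was hybridised to Affymetrix arrays, 1 array per sample. The deposited values are MAS5 signal intensities on a linear scale, 1 per probe set, made by the authors with MAS5 and Affymetrix Expression Console per the submitters' processing notes; their versions were not found in the sources. The 2% trimmed mean of each column was equal, as after scaling by 1 factor. Between the vehicle arrays, 1 of 45101 probe sets had the same value, so the columns are not copies; they are labelled as 2 samples and were counted so. Precision is limited by having 3 arrays.

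Of the 45101 probe sets, 64 were controls, 34945 carried 1 gene symbol in the platform annotation, 932 several and 9160 none, and the last 2 kinds were named after no gene. For each of 18193 genes the brightest probe set (by its mean over the 3 arrays) was used, and genes at or above the median mean signal (178) were tested. Signals became log2(signal + 50) with no further normalization. TC was tested against vehicle by limma (3.58.1, under R 4.3.3), using lmFit and eBayes with a variance trend on brightness (1 residual and 7.98 prior degrees of freedom) and Benjamini-Hochberg adjustment at 0.05. The fit was tested on simulated data. All 3 simulated arrays had a spread tied to brightness and taken from the vehicle pair. The simulation therefore could not test whether TC varies like vehicle or whether spread follows brightness. Figures used matplotlib 3.10.9.

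The comparison and the 59 gene lists were chosen with earlier results of these data known. The text names the 15 largest increases and 15 largest decreases past the test with TC at least 0.5 beyond the nearer vehicle array, up to 4 members of each list with the largest difference past the test (up to 2 where none passed), and Kdm1a, Maoa and Maob. Genes outside this rule are the muscle identity markers, the enzymes and regulators of the cholesterol figure and any gene said to be named after its value was seen. Of 736 genes past the test, 325 had another bright probe set: all of these had the same sign for 282 genes, and at least 1 had the opposite sign for 43. Promoters came from a RefSeq table (GRCm38.p6) matched by symbol. The alternatives were other offsets (10 and 250), no filter, a filter at the 75th percentile, the mean of a gene's probe sets, quantile normalization, median centring, no intensity trend, all 4 arrays in 3 groups, and each vehicle array left out.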

Additional observations from a re-analysis of the deposited data

How the results depend on the processing

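Genes past the test numbered 735 and 729 with offsets of 10 and 250, 615 of 4549 with the stricter filter, 718 with the mean of probe sets, 571 with quantile normalization, 860 with median centring and 744 with all 4 arrays, but 84 without the intensity trend and 10 with no filter, where 18193 genes were tested. Of the main 736, 457 passed in the mean of probe sets and 563 after quantile normalization. The share of higher genes among those past the test was 52.2%, and 46.4%, 45.8% and 44% with quantile normalization, median centring and no trend. The count of genes at least 2-fold away moved from 53 to 85 and 25 with offsets of 10 and 250, 125 with no filter, 19 with the stricter filter and 34 with the mean of probe sets, and was 63 to 64 without 1 vehicle array. Leaving out a vehicle array leaves no residual degree of freedom, so it gave differences and no test.

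Of the 158 named genes past the test, 48 kept their call without the trend, 9 with no filter, 118 in the mean of probe sets, 136 after quantile normalization and 156 with an offset of 250 (Cdc6 and Jag1 were lost), and no gene turned its direction. Lost in the mean of probe sets were Abca1, Abca3, Aldh18a1, Aldh2, Atf6, Atp2a2, Brca1, Car3, Chrng, Csf1, Ctsa, Dnajc17, Dtx4, E2f2, Erbb3, Eya1, Fabp3, Fkbp5, Foxo3, Fzd7, Hadhb, Ier5, Igfbp7, Inhba, Klf4, Lifr, Map2, Mef2a, Mgst1, Myom2, Nfe2l2, Palld, Plat, Ryr1, Slc2a1, Spc25, Sqstm1, Trp53inp1, Ttk and Vegfc. Quantile normalization lost Atf6, Brca1, Cdc6, Chrng, Dkk2, Erbb3, Eya1, Foxo3, Fzd7, Gabarapl1, Hes6, Igfbp5, Jag1, Jsrp1, Klf4, Mef2a, Mgst2, Omd, Pdlim3, Pdpn, Rps27 and Uqcrc1. Hspa1a and Dmp1 passed only in the mean of probe sets. No paired analysis was possible because TC has 1 array, so the groups share fewer than 2 replicate numbers. Where a gene is dim, MAS5 signals near the offset limit what can be measured, and the cause of the lost calls was not tested.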

Other observations

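Several genes past the test lie outside the gene lists and were named after their values were seen. Gch1 and Pcbd1, which make and recycle the cofactor tetrahydrobiopterin, had signals of 431 and 396 with vehicle and 857 with TC and of 169.7 and 222 with vehicle and 435 with TC, rises of 0.97 ± 0.14 and 0.99 ± 0.19. Plcg2, a phospholipase C of signalling cascades, went from 352 and 447 to 885, and Cst6, a secreted inhibitor of cysteine proteases, from 326 and 363 to 779. Among genes that fell, Bcat1, which starts the breakdown of branched-chain amino acids, went from 493 and 556 to 231, and Vdr, the vitamin D receptor, from 483 and 469 to 229. Further cell division genes outside the lists were lower, with differences of -1.19 ± 0.11 for Kif22, a chromosome-arm kinesin, -1.04 ± 0.19 for Esco2, an acetyltransferase of sister-chromatid cohesion, -1.11 ± 0.18 for Dscc1, which loads the replication clamp, and -0.96 ± 0.09 for Pclaf, a partner of that clamp. Esco2 and Dscc1 were bright enough to test only through vehicle.

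Some genes too dim to be tested had the TC array far from both vehicle arrays, and they are given as values with no test, named after their values were seen. Csf2rb, the shared receptor chain of several interleukins, had signals of 49.5 and 34.1 with vehicle and 342 with TC, and Slco4a1, an organic anion transporter, 61.7 and 55.1 with vehicle and 298 with TC. Fez1, a kinesin adaptor of neurons, had 61.4 and 111 with vehicle and 285 with TC. Fmod, fibromodulin, another small leucine-rich proteoglycan, had 205 and 214 with vehicle and 18.6 with TC, and Col8a2, the partner chain of Col8a1, 164 and 137 with vehicle and 12.2 with TC. For the latter 2 genes the TC signal lay below the offset of 50, so no size is given.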
